A study of Mus musculus with 6 samples.

Results

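The tricarboxylic acid (TCA) cycle and the steps that feed pyruvate into it were followed in sorted mouse blood stem cells with and without floxed beta-catenin. Members were fixed as a list of 30 genes of known enzymes, transporters and regulators, and found as the probe sets annotated to exactly 1 gene of that list. That rule uses no measured value, but the list was drawn up with earlier results of these data known. All 30 were measured, out of 14586 genes tested. They had 377 probe sets, and 317 of these passed the filter on dim probe sets (a mean log2 value over the arrays of at least 7.60), between 2 and 30 probe sets a gene. Mpc1 and Mpc2 were listed in the annotation under the older symbols Brp44l and Brp44.

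The cells were sorted from mouse bone marrow by the gate labelled KLSCD34-, by common usage positive for c-Kit and Sca-1 and negative for lineage markers and CD34. RNA of 3 control samples and of 3 samples with floxed beta-catenin and the Vav-Cre transgene, which recombines floxed alleles in blood-forming cells and in some endothelium, was read on 1 array each. They are called control and floxed arrays here. Ages, the alleles carried by controls and whether a sample is 1 animal or a pool are not given in the sources used here, so p-values here reflect only sample-to-sample spread, possibly of a technical kind.

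In the mitochondrion pyruvate dehydrogenase turns pyruvate into acetyl-CoA, citrate synthase joins it to oxaloacetate, and the cycle oxidises the product step by step, passing electrons to the respiratory chain. Its 2-oxoglutarate is also the co-substrate of dioxygenases that remove methyl groups from DNA and histones, and its citrate is the source of cytosolic acetyl-CoA. Long-term blood stem cells are known for relying strongly on glycolysis, with pyruvate dehydrogenase kinases holding pyruvate back from the cycle.

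The labels were checked first. Of 16 probe sets of Ctnnb1, the gene of beta-catenin, 5 passed, all lower in floxed arrays, by log2 differences from −6.90 to −2.51, and these were the only calls among 120788 probe sets in limma. RNA of the stem cell genes Kit, Ly6a (Sca-1), Hlf and Meis1 was measured in both groups and differed by −0.10, −0.02, −0.02 and 0.02 log2. Slamf1, Ptprc, Procr and Mecom, from the same list of stem cell genes, differed by more, at 0.23, 0.16, 0.14 and 0.12 log2. Their groups overlapped. Among the 9 measured genes of that list 5 had positive and 4 had negative differences, and none passed. RNA of Cd34 was measured too, at 12.68 log2 in controls against 12.65 in floxed arrays, although the gate is negative for the surface protein. Array correlations across probe sets were 0.942 to 0.953 among controls and 0.972 to 0.973 among floxed arrays, so the controls were the more scattered group. Control replicate 3 stood lowest, with a median deviation of −0.08 log2 over all genes, where each gene was set against its own mean over the 6 arrays.

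None of the 30 genes passed the test. In limma 0 of the 30 members had an adjusted p under 0.05, as was the case for 0% of the 14586 genes. Ctnnb1 was among those genes, so at gene level the test did not call even the floxed gene, which passed only by single probe sets. Array weights, an alternative that lets noisy arrays count less, called 404 of 14586 genes, and leaving out control replicate 1 called 2 of 14695. No member was among them, but with so small a share of all genes called this says little about the members. At an unadjusted p under 0.05 there was 1 member on the higher side, Sucla2, against a background of 2.43% of all genes, and there was none on the lower side, against 1.28%. The largest difference belonged to Sucla2, a subunit gene of succinyl-CoA ligase. The other subunit genes of that enzyme, Suclg1 and Suclg2, also had higher gene values in floxed arrays. Suclg2 was near 0 as the median over single probe sets (0.0086 log2), and Suclg1 had 0.07 without control replicate 3. Citrate synthase and the first subunit of 2-oxoglutarate dehydrogenase were slightly lower. Of the 30 members 21 were higher (70%) and 9 lower, and their median fold change was 0.06 log2. Over all genes 54.2% were higher, and the median was 0.02. Quantile normalization gave 18 of 30 members higher (60%), against 45.5% of all genes. With the filter at the 75th percentile the members' median of 0.022 lay below that of all genes (0.034), and of the members' single probe sets 57.1% were higher, against 58.8% of all, so the excess over other genes was not kept under every summary. The fold changes of the members ran from −0.14 to 0.42, and the 95% confidence intervals of all 30 lay within 1 log2 unit of 0, those of 22 within 0.5.

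**Figure D1:**
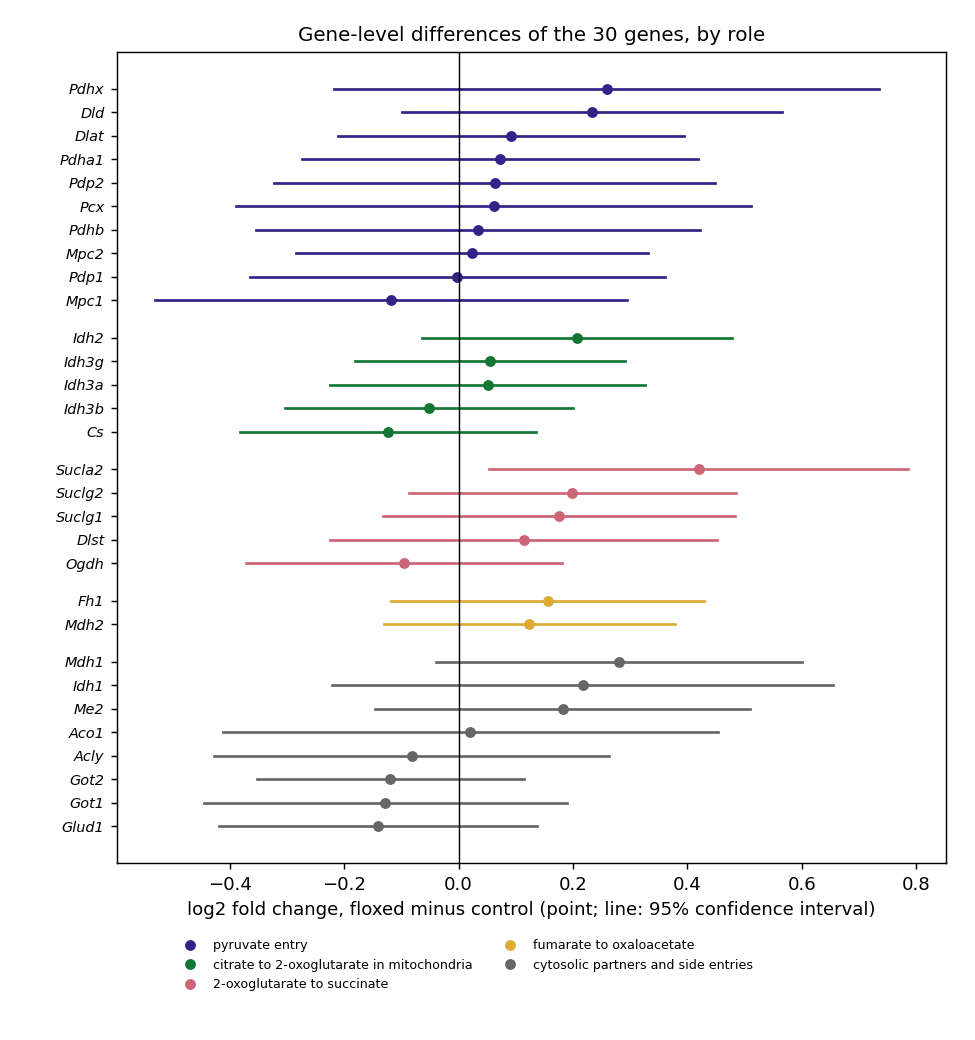
Log2 fold change of each of the 30 genes (points) with its 95% confidence interval from limma (lines), floxed minus control, grouped and coloured by role. Sucla2 (0.42) is the 1 gene whose interval (0.05 to 0.79) does not cross 0, and it did not pass after adjustment over all genes.

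Succinyl-CoA ligase splits succinyl-CoA into succinate and makes a nucleoside triphosphate on the way. Its alpha subunit is encoded by Suclg1, and the beta subunit by Sucla2 in the form that makes ATP or by Suclg2 in the form that makes GTP. Sucla2 had log2 values of 9.003, 8.69 and 8.69 on control replicates 1, 2 and 3 and of 9.20, 9.01 and 9.43 on floxed replicates 1, 2 and 3. The groups did not overlap, although control replicate 1 and floxed replicate 2 lay side by side. The difference was 0.42 log2 (SE 0.17), or 1.34-fold, with a limma adjusted p of 0.999. All 10 of its kept probe sets were higher in floxed arrays, by 0.24 to 0.73 log2; they share the same RNA and are not replicates. With single arrays left out the difference ran from 0.31 (without floxed replicate 3) to 0.52 (without control replicate 1). Its limma adjusted p was 0.0722 with array weights and 0.18 without control replicate 1, and from 0.915 up to 0.99984 under the other alternatives.

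Suclg2 had 9.61, 9.75 and 9.74 on the control arrays against 9.90, 9.80 and 10.01 on the floxed arrays, a difference of 0.20 log2 (SE 0.13, limma adjusted p = 0.999). Again the groups did not overlap in the gene value, but that value came from different probe sets on different arrays. Control replicates 1 and 2 took it from 1 probe set, control replicate 3 and floxed replicate 1 from another. Floxed replicates 2 and 3 took it from a different probe set again. The differences of these probe sets themselves were 0.26, 0.0086 and −0.0011 log2. Only 6 of the 11 Suclg2 probe sets were higher. The gene's difference was 0.018 log2 with the mean of probe sets and 0.0086 as the median over single probe sets. For the shared subunit Suclg1 the values were 9.97, 9.90 and 9.61 in controls against 10.04, 9.92 and 10.05 in floxed arrays, with a difference of 0.18 log2 (SE 0.14). Here the groups overlapped, control replicate 3 was the low array, and without it the difference was 0.07. All 7 Suclg1 probe sets were higher. By gene value Sucla2 and Suclg2 were the 2 members with every floxed array above every control array, where 5.57% of all genes were so placed. Cs was the 1 member with every floxed array below, against 2.87%.

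**Figure D2:**
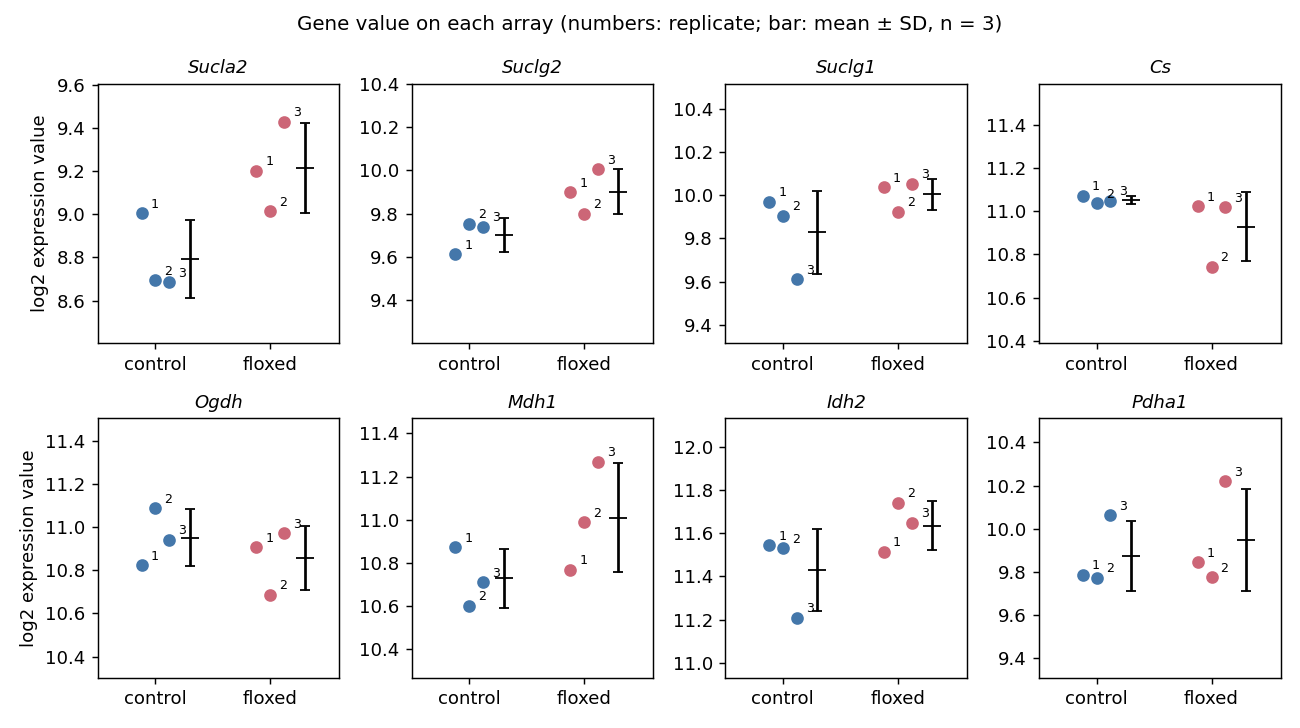
Log2 expression value of 8 of the genes on each of the 6 arrays (points, labelled by replicate number), with the mean and SD of each group (n = 3) beside them. Each panel spans 1.2 log2 units around the gene's own mean. Sucla2, Suclg2 and Cs are the panels without overlap; in Suclg1 and Idh2 control replicate 3 lies below the other arrays.

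The upstream sequences of the 3 ligase genes are shown because Sucla2 had the largest difference and its partners lay on the same side by gene value. They are the 250 bases before the start in the RefSeq table of GRCm38.p6, read 5′ to 3′ on the strand of the gene, which is plus at chr14:73552536-73552785 for Sucla2, plus at chr6:73248255-73248504 for Suclg1 and minus at chr6:95718847-95719096 for Suclg2. Capitals mark the letters GGGCGG or their reverse complement, the core bound by SP1.

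Sucla2: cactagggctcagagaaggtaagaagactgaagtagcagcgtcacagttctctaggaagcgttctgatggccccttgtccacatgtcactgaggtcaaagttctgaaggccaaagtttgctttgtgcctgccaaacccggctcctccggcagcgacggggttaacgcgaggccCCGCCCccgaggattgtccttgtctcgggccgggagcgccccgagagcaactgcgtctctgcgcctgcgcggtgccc

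Suclg1: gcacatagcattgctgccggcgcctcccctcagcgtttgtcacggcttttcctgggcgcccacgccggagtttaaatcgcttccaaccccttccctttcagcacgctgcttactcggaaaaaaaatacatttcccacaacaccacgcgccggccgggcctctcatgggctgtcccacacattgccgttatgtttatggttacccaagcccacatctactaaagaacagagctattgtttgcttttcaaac

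Suclg2: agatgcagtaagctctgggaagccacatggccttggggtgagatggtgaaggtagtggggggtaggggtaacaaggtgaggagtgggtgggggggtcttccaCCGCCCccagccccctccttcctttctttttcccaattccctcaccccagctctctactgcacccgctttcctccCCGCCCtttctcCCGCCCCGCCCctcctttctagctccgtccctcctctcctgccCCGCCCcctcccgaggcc

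Suclg2 held 5 matches, at 148, 73, 61, 56 and 18 bases before the start, those at 61 and 56 sharing 1 base. Sucla2 held 1, at 77 bases before it, and Suclg1 held none in this window. Promoter sequences were listed for 27 of the 30 members. The SP1 letters were found on either strand in 20 of those 27 (74.1%), against 35.4% of 27025 genes. Those 27025 are all genes with a listed promoter, taken without the filter on dim probe sets, so the 2 sets are unlike. The member windows had a median GC content of 61.6% against 52.4% and a median of 17 CG letter pairs against 6. GCATGCGC, a core of the NRF1 site, was found in 2 of 27 (7.41%, Glud1 and Ogdh) against 2.56% of genes. CCGGAAG, read by GABPA, was in 3 of 27 (11.1%, Glud1, Idh3g and Mpc1) against 7.83%, and CAAGGTCA, read by ESRRA, was in 0 of 27 against 1.51%. The 4 motifs were chosen as textbook regulators of mitochondrial genes, and a match describes letters and no binding. Matches may overlap each other.

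Upstream in the same stretch, the 2-oxoglutarate dehydrogenase complex makes succinyl-CoA from 2-oxoglutarate. Its E1 gene Ogdh had 10.82, 11.09 and 10.94 in controls against 10.91, 10.69 and 10.97 in floxed arrays, a difference of −0.10 log2 (95% confidence interval −0.37 to 0.18). The groups overlapped, with floxed replicate 2 the low array (−0.012 without it), yet 24 of its 27 probe sets were lower by small amounts. The E2 gene Dlst had 9.97, 10.07 and 9.64 in controls against 10.19, 9.96 and 9.88 in floxed arrays (0.11 log2, SE 0.15), and turned to −0.013 without control replicate 3. So within this stretch of 5 genes 4 were higher and 1 lower, with a median of 0.18 log2. Without control replicate 3 it was 3 higher and 2 lower, and the middle value was the 0.07 of Suclg1.

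Citrate synthase, encoded by Cs, opens the cycle. It had 11.07, 11.04 and 11.05 in controls against 11.02, 10.74 and 11.02 in floxed arrays. In this gene value all floxed arrays lay below all controls, 2 of them by hundredths of a log2 unit. The difference of −0.12 log2 (SE 0.12, limma adjusted p = 0.999) leaned on floxed replicate 2: it was −0.031 without that array. Of the 12 Cs probe sets 10 were lower, but 0 had every floxed array below every control.

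Isocitrate is oxidised by the NAD-dependent enzyme built from Idh3a, Idh3b and Idh3g and by the NADP-dependent Idh2. The 3 subunit genes of the NAD enzyme stayed close to 0, at 0.05, −0.05 and 0.05 log2, and their intervals reached no further than 0.33 to either side. Idh2 had 11.54, 11.53 and 11.21 in controls against 11.51, 11.74 and 11.65 in floxed arrays, a difference of 0.21 log2 (SE 0.12). Control replicate 3 was the low array, and without it the difference was 0.098. Its cytosolic counterpart Idh1 had 8.82, 8.36 and 8.19 in controls against 8.64, 8.49 and 8.90 in floxed arrays (0.22 log2, SE 0.20), with control replicate 1 inside the floxed range. The Idh1 difference was 0.08 without control replicate 3 and 0.40 without control replicate 1, and neither isoenzyme passed.

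Fumarate hydratase, encoded by Fh1, and mitochondrial malate dehydrogenase, encoded by Mdh2, return the cycle to oxaloacetate. Fh1 had 10.10, 10.16 and 9.96 in controls against 10.28, 10.14 and 10.27 in floxed arrays, a difference of 0.16 log2 (SE 0.12), and all 10 of its probe sets were higher. Mdh2 had 11.83, 11.84 and 11.66 in controls against 11.70, 12.02 and 11.98 in floxed arrays, a difference of 0.12 log2 (SE 0.12), and 8 of 9 probe sets were higher. Single arrays moved Mdh2, to 0.06 without control replicate 3 or floxed replicate 2 and to 0.22 without floxed replicate 1. Both genes overlapped between groups and had control replicate 3 as their lowest array.

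Pyruvate enters through the mitochondrial carrier made of Mpc1 and Mpc2. Mpc1 had 8.91, 8.995 and 9.11 in controls against 9.14, 9.03 and 8.49 in floxed arrays. Its difference of −0.12 log2 came with 1 low array, and it was 0.08 without floxed replicate 3. The gene value came from 1 probe set on control replicate 1 and floxed replicate 3 (−0.13 log2 by itself). It came from another on the other arrays (0.02 log2). Mpc2 had 8.99, 8.996 and 9.05 in controls against 8.96, 9.16 and 8.99 in floxed arrays (0.02 log2), and changed sign under both other scalings. These 2 genes rested on 3 and 2 kept probe sets.

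The pyruvate dehydrogenase complex showed no difference beyond its spread. Pdha1, which encodes the E1 alpha subunit and lies on the X chromosome, had 9.79, 9.77 and 10.06 in controls against 9.85, 9.78 and 10.22 in floxed arrays (0.07 log2, SE 0.16), with replicate 3 high in both groups. The other E1 gene Pdhb, the E2 gene Dlat and the phosphatase genes Pdp1 and Pdp2, whose products switch the complex on, had 0.03, 0.09, −0.0020 and 0.06 log2, and Pdhb turned to −0.00010 with quantile normalization. Dld, the E3 enzyme that this complex shares with 2-oxoglutarate dehydrogenase, had 9.34, 8.96 and 9.26 in controls against 9.52, 9.40 and 9.34 in floxed arrays (0.23 log2, SE 0.15), with control replicate 1 level with floxed replicate 3. Its probe sets spread from −0.11 to 1.06 log2, and with no filter on dim probe sets the gene had 0.58. Pdhx, the E3-binding protein gene, had 0.26 log2 (SE 0.22), and 0.036 without control replicate 3, on which it was lowest (7.64). Pyruvate carboxylase, encoded by Pcx, makes oxaloacetate directly; it had 0.06 log2 on 3 of 22 probe sets and −0.19 with no filter. Of these 10 pyruvate entry genes 8 were higher and 2 lower, with a median of 0.06.

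**Figure D3:**
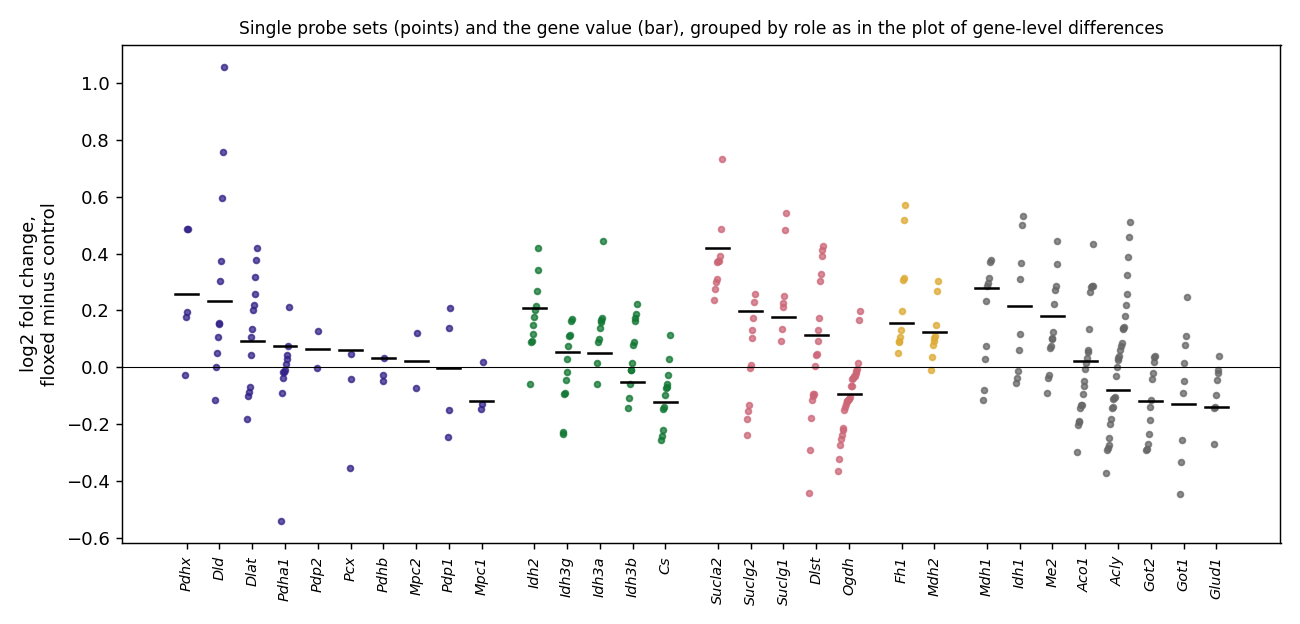
Log2 fold change of every kept probe set of the 30 genes (points, 317 in all) and of the gene value (bars), floxed minus control, grouped by role. All points of Sucla2, Suclg1 and Fh1 lie above 0, most of Ogdh and Cs lie below it, and Dld has the widest spread on the upper side, up to 1.06.

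Cytosolic partners and side entries were evenly divided, 4 higher and 4 lower. Mdh1, the cytosolic malate dehydrogenase of the malate-aspartate shuttle, had 10.87, 10.60 and 10.71 in controls against 10.77, 10.99 and 11.27 in floxed arrays, a difference of 0.28 log2 (SE 0.15, limma adjusted p = 0.999). The groups overlapped, and without floxed replicate 3 it was 0.15. The transaminases of the same shuttle lay on the other side of 0: cytosolic Got1 had −0.13 log2 (SE 0.14) and mitochondrial Got2, with 11.76, 11.67 and 11.58 in controls against 11.65, 11.44 and 11.57 in floxed arrays, had −0.12 (SE 0.11). Got1 had 9.78, 9.75 and 9.46 in controls against 9.54, 9.43 and 9.63 in floxed arrays, and both genes overlapped between groups.

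Glud1, the glutamate dehydrogenase that feeds 2-oxoglutarate into the cycle, had −0.14 log2 (SE 0.13), with 7 of 8 probe sets lower. Me2, a mitochondrial malic enzyme that makes pyruvate from malate, had 9.91, 9.55 and 9.63 in controls against 9.76, 9.83 and 10.05 in floxed arrays (0.18 log2, SE 0.15). Leaving out control replicate 3 gave 0.12, leaving out control replicate 1 gave 0.29, and the difference was 0.0015 with the filter at the 75th percentile. Acly, which cleaves citrate in the cytosol, and Aco1, the cytosolic aconitase that doubles as an iron regulatory protein, had −0.08 and 0.02 log2. Both turned sign under alternatives, Aco1 under both other scalings and down to −0.25 with array weights.

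The members' median lay away from 0 mainly on both replicate 3 arrays. Their median deviation per array was 0.0031, 0.0040 and −0.14 log2 on control replicates 1 to 3 and −0.0020, −0.016 and 0.10 on floxed replicates 1 to 3, so control replicate 3 was low, floxed replicate 3 high and the other 4 arrays level. All genes moved the same way on both by less, with medians of −0.081 on control replicate 3 and 0.035 on floxed replicate 3. Control replicate 3 was the lowest array for 14 of the 30 genes (46.7%), against 34.7% of all genes, and the highest for 0. Floxed replicate 3 was the highest for 9 (30%), against 12.5%. The gene value of Mpc1 went the other way on both, highest of the controls on the first and lowest of all arrays on the second. Only 1 of its probe sets did so, with 9.11 and 8.33. The remaining probe sets had 8.03 and 9.78 on control replicate 3, each its lowest control value. On floxed replicate 3 they had 8.49, the highest floxed value of that probe set, and 9.97, between its other floxed values. Without control replicate 3 the members' median was 0.039 log2, with 17 of 30 higher, against 50.4% of all genes. It was 0.12 without control replicate 1 and 0.098 without control replicate 2.

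**Figure D4:**
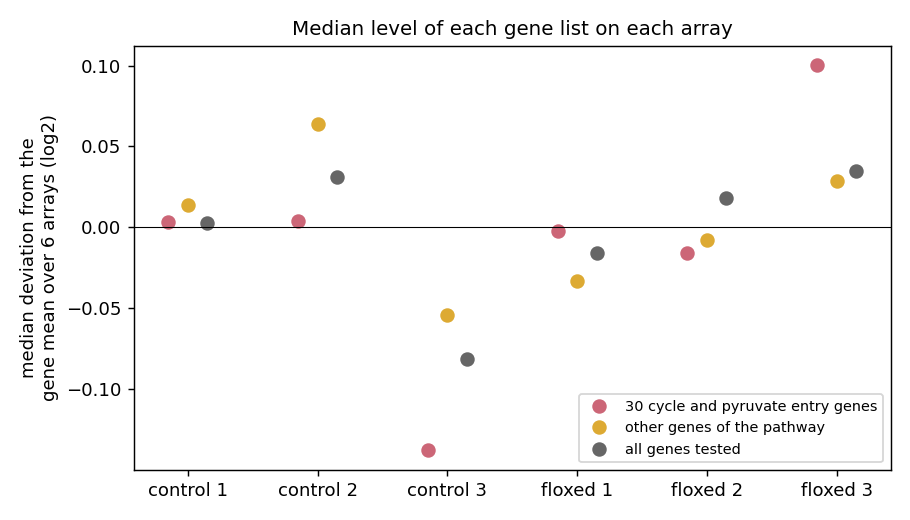
Median over each gene list of the deviation from the gene's mean over the 6 arrays (log2), for the 30 members, the 38 other measured genes of the pathway and all 14586 genes. The members lie at −0.14 on control replicate 3 and at 0.10 on floxed replicate 3, and between −0.02 and 0.01 on the other 4 arrays. All genes lie at −0.081 on control replicate 3 and at 0.035 on floxed replicate 3.

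Marker genes of other blood cells differed between the same arrays. All 10 measured genes of the granulocyte and macrophage list were lower in floxed arrays, from −1.03 to −0.0013 log2 with a median of −0.29, and none passed. The list's median deviation was 0.49, 0.51 and −0.40 for control replicates 1 to 3 and −0.47, −0.38 and 0.22 for floxed replicates 1 to 3, and control replicate 3 and floxed replicate 3 each stood apart from their group. In the erythroid and megakaryocyte list 6 of 7 genes lay lower (median −0.23), in the T and NK cell list 4 of 5 (−0.17), in the stroma and endothelium list 3 of 5 (−0.01) and in the B cell list 3 of 6 (−0.03). The B cell list had the widest swing between arrays, with median deviations of 0.68, 0.16 and −0.74 for control replicates 1 to 3 and −0.16, −0.29 and 0.39 for floxed replicates 1 to 3. It was low on control replicate 3 and high on floxed replicate 3, as the cycle genes were by smaller amounts, and also high on control replicate 1, where they were not. The other marker lists likewise had negative medians on control replicate 3 and positive ones on floxed replicate 3. For the stem cell list these were −0.16 and 0.07. No detection calls were used, so a marker cannot be shown to be absent. The part of other cells in the values of the cycle genes was not tested, and fewer cells of a type cannot be told apart from less RNA per cell.

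The wider pathway was read from a list of 42 further genes, of which 38 were measured. In limma 0 of the 38 passed, 20 were higher and 18 lower, and the median was 0.01 log2. Succinate dehydrogenase, which is also complex II of the respiratory chain, lay on both sides: Sdha had −0.09, Sdhb 0.24, Sdhc −0.07 and Sdhd 0.0075 log2. For Sdha 11 of 15 probe sets were higher although the gene value was lower, so probe sets and gene value differed in sign.

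Pyruvate dehydrogenase kinases switch that complex off. Pdk1 had 9.44, 9.48 and 9.40 in controls against 9.82, 9.55 and 9.64 in floxed arrays, without overlap, a difference of 0.23 log2 (SE 0.13, limma adjusted p = 0.999). Pdk2, Pdk3 and Pdk4 had −0.16, 0.03 and 0.13 log2, and all 12 Pdk2 probe sets were lower. Lipt2, needed to place the lipoyl group on these dehydrogenases, had 0.23 log2, and the transaminase gene Gpt2 had 0.28.

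The most negative values of the wider list were those of the acetyl-CoA synthetases, which make acetyl-CoA from acetate. Cytosolic and nuclear Acss2 had 9.49, 9.23 and 9.48 in controls against 8.85, 8.94 and 9.04 in floxed arrays, a difference of −0.46 log2 (SE 0.15, limma adjusted p = 0.999). Every floxed array lay below every control, and it was the 1 gene of the 38 (2.63%) with an unadjusted p under 0.05, against 3.70% of all genes. Of its 17 probe sets 14 were lower and 3 higher, by up to 0.30 log2, and none had an unadjusted p under 0.05 by itself. Mitochondrial Acss1 had 9.11, 9.75 and 9.37 in controls against 8.98, 8.60 and 9.36 in floxed arrays, −0.43 log2 (SE 0.22). Here control replicate 1 and floxed replicate 3 crossed, and all 13 probe sets were lower.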

How the data were processed

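The table deposited by the authors holds log2 expression values of 241576 probe sets on 6 arrays, 3 control and 3 floxed; that the scale is log2 was read from the values. MAS5 is named in the submitters' processing notes with no role or version, and other details of background correction and scaling are not given in the sources used here. No further normalization was applied, and array number limits the precision. Probe sets were kept where their mean reached the median of such means (120788), and those with exactly 1 gene (110361) were used. A RefSeq table of GRCm38.p6 supplied current names for 2742 old symbols. A gene's value on an array is the median over its kept probe sets, so it can come from different probe sets on different arrays. All 14586 genes were fitted together with limma 3.58.1 in R 4.3.3 (two-sided, eBayes with trend, Benjamini-Hochberg adjustment, threshold 0.05), and so was every kept probe set. The steps were checked on simulated data with independent noise and planted changes far larger than those of the members. Differences of the members' size were not covered by that check. Members, gene lists and tests were chosen with earlier results of these data known. Every member is named; of the wider list the 5 genes with the smallest p, the Sdh and the Pdk genes are. Motifs were searched with Python 3.11.15. Alternatives were 2 scalings, 2 filters, the mean of probe sets, 2 variance models, array weights, a replicate block, leaving out each array and single probe sets.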

Additional observations from a re-analysis of the deposited data

How the results depend on the processing

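Under 16 alternatives for each of the 30 genes, 430 log2 fold changes kept their sign and 48 turned, and no member passed under any of them. In 3 of these alternatives (no trend, robust eBayes and the replicate block) the fold changes equal those reported by construction, so they test no sign. Pcx and Pdp2 had no value with the filter at the 75th percentile. The 17 genes that kept their sign throughout were 12 on the higher side, among them Sucla2, Suclg1, Suclg2, Fh1, Mdh1 and Idh2, and 5 on the lower side, Cs, Ogdh, Got1, Got2 and Glud1. A kept sign includes values near 0, such as 0.0086 for Suclg2 and 0.0015 for Me2. How many of all genes kept their sign was not counted, so the 17 cannot be read as a trait of the members. The genes past the threshold over the whole table numbered 0, but 2 with no filter, 1 with the mean of probe sets, 404 with array weights, and 0 to 2 when 1 array was left out, the 2 being reached without control replicate 1. Array weights gave control replicates 1 to 3 the weights 0.270, 3.37 and 0.402. With them 7 members had an unadjusted limma p under 0.05, the smallest adjusted p being 0.0722. The share of all genes under that p was not counted in this setting, so the 7 cannot be read as a trait of the members. Why array weights gave more calls was not tested. The members' median ran from 0.022 to 0.12 log2; with the filter at the 75th percentile it was 0.022 against 0.034 for all genes, and with the mean of probe sets 0.037 against 0.031. With the replicate block 0 genes and 0 members passed, the median was 0.062 and the smallest limma adjusted p of a member 0.999. The same-number correlations ran from −0.243 to 0.198, and 1 of 3 control arrays correlated best with the floxed array of its number. These were taken on deviations within groups of 3 arrays, too few to decide whether the numbers pair the samples.

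The sign turned for 13 genes. With quantile normalization Aco1 had −0.018, Mpc2 −0.014 and Pdhb −0.00010. With equal array medians Aco1 had −0.011 and Mpc2 −0.0072. With no filter Dlat had −0.033, Mpc2 −0.27 and Pcx −0.19. With the filter at the 75th percentile Acly had 0.011, Dlst −0.098 and Mpc2 −0.074. With the mean of probe sets Acly had 0.019, Idh3b 0.050, Idh3g −0.0044, Pcx −0.12, Pdha1 −0.031 and Pdhb −0.014. With array weights Aco1 had −0.25, Dlst −0.020, Pcx −0.19, Pdhb −0.027, Pdp1 0.074 and Pdp2 −0.038. As the median over single probe sets Acly had 0.030, Aco1 −0.0070, Idh3b 0.046, Pcx −0.043, Pdha1 −0.0096 and Pdhb −0.028. When 1 array was left out, Acly ran from −0.19 to 0.093, Aco1 −0.18 to 0.19, Dlst −0.013 to 0.20, Idh3b −0.11 to 0.0074, Mpc1 −0.25 to 0.081, Mpc2 −0.038 to 0.063, Pcx −0.097 to 0.093, Pdha1 −0.063 to 0.17, Pdhb −0.11 to 0.15, Pdp1 −0.10 to 0.15 and Pdp2 −0.024 to 0.16.

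No detection calls were used, so the signal of genes resting on few or dim probe sets (Mpc1, Mpc2, Pcx, Pdp2 and Pdhx) cannot be set against background. With 3 arrays a group the median 95% confidence interval of a member reached 0.32 log2 to either side, and of any gene 0.39, so differences below that size were not resolved here. These intervals are not adjusted for the number of genes, and larger differences could fail too, as that of Sucla2 did at 0.42.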
